A study of Mus musculus with 12 samples.

Results

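The genes described here are 39 mouse genes of the ATF4 stress and amino acid response, taken as a named list and matched by Ensembl identifier to the count table of a bulk RNA-seq study. The table holds 55487 genes, 18109 of which passed the filter on low counts, and all 39 members were among them. The study grew embryoid bodies, free-floating aggregates of differentiating cells, from mouse epiblast stem cells that had been derived from embryonic stem cells. Doxycycline switches on a Mixl1 transgene with a FLAG tag in these cells; Mixl1 is a homeobox transcription factor of the primitive streak, and the series compared different timings of its expression.

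The labels give 4 groups of 3 libraries. D3Dox_d4 received doxycycline at 1 µg/mL and was collected on day 4, and NoDox_d4 was collected on day 4 without the drug. D1Dox_d2 received doxycycline at the same dose and was collected on day 2, and NoDox_d2 was collected on day 2 without it. All groups carried the transgene and grew in serum medium with a supplement of non-essential amino acids, per the labels. What the D number in a group name stands for is not given in the labels. There was no group with doxycycline but no transgene, and therefore drug and Mixl1 cannot be told apart as sources of an effect. Nothing in the labels says that the libraries of a group came from separate cultures, so the p-values measure the spread between these libraries, which may be technical.

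ATF4 is a transcription factor whose mRNA is translated more efficiently when the initiation factor eIF2 is phosphorylated, as happens under amino acid shortage, endoplasmic reticulum stress, haem shortage or infection. With partners of the C/EBP family it binds composite sites near genes for amino acid synthesis, uptake and tRNA charging. Pluripotent and differentiating embryonic cells have a high demand for serine, glycine, proline and one-carbon units, and several of these genes are known as markers of amino acid supply in culture.

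The composite C/EBP-ATF site is commonly written TGATGNAA. Promoter windows of 300 bases, from 250 before to 50 after the annotated start (RefSeq, GRCm38.p6), were found for 33 of the 39 members. A match on either strand stood in windows of 11 members: Aars, Asns, Atf3, Chac1, Gars, Jdp2, Nupr1, Pycr1, Slc7a11, Trib3 and Vldlr. Among all 32851 windows of the same length, 3.97% held a match, and among the members' 42 windows 11 did. By gene, 33.3% of the 33 members had a window with a match, against 4.51% of 27025 genes. The narrower form TGATGCAA, which is contained in the first, stood in windows of 8 members (24.2%), of 1.03% of all genes, and in 0.895% of all windows. Because the list was drawn up as genes of the ATF4 response, these contrasts are not an independent result. The following 40-base stretches are shown because they carry a TGATGNAA match in genes that the results below turn on. Chac1, Pycr1, Asns and Slc7a11 were low in the same 5 libraries, while Nupr1 and Atf3 were not. Each is printed 5′ to 3′ on the strand of its gene, with the match in capitals; a match on the opposite strand appears as its reverse complement, for example TTGCATCA in Chac1.

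Chac1, chr2:119351033-119351072, plus strand: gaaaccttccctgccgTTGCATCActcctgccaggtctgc

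Pycr1, chr11:120643828-120643867, minus strand: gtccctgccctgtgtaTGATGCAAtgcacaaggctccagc

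Asns, chr6:7693209-7693248, minus strand: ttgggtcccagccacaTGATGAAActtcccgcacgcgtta

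Slc7a11, chr3:50443637-50443676, minus strand: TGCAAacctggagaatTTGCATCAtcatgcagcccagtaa

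Nupr1, chr7:126625557-126625596, minus strand: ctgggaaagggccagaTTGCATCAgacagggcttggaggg

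Atf3, chr1:191183420-191183459, minus strand: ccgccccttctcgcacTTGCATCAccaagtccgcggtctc

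The capitals at the left end of the Slc7a11 stretch are the end of another match. These are matches of letters and not measured binding sites.

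Libraries held 24100487 to 28020036 counts assigned to genes, so that 3 counts correspond to 0.107 to 0.124 CPM. CPM here means counts scaled to a common library size, after TMM correction. Mixl1, the induced gene, had 478, 417 and 450 CPM in D3Dox_d4, 1.62, 1.83 and 1.11 CPM in NoDox_d4, 392, 362 and 387 CPM in D1Dox_d2, and 91.0, 0.593 and 1.15 CPM in NoDox_d2 (replicates 1 to 3 in each group). The library labelled NoDox_d2 replicate 1 thus held far more Mixl1 than the other NoDox libraries, and less than any doxycycline library. It also held 1261 CPM of the primitive streak gene T, against 100 and 142 CPM in replicates 2 and 3. Where its Mixl1 came from was not tested. Both NoDox libraries numbered 1 stood apart from their groups. Across the members, the correlation of log2 CPM of replicate 1 with replicates 2 and 3 was 0.891 to 0.906 in the NoDox groups, whereas replicates 2 and 3 correlated at 0.997 on day 2 and 0.998 on day 4. The counts of members called are therefore given with all 12 libraries and without both of these; the choice to leave them out rests on the data.

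The members were low in the same 5 libraries. In 32 of the 39 members the 5 lowest of the 12 values were the 3 D1Dox_d2 libraries and both NoDox libraries numbered 1, an arrangement found in 8.56% of all genes tested. The exceptions were Atf3, Ddit3, Cebpb, Nupr1, Ppp1r15a, Wars and Gdf15. This set of 5 libraries was not planned and was taken from these same data. The members too were chosen with earlier results of these data known. The shares of all genes given here therefore describe the pattern and do not test it. In NoDox_d4, replicate 1 was below both other libraries in 39 of 39 members, against 45.0% of genes tested, and the median ratio to the mean of the other libraries was 0.299. In NoDox_d2, replicate 1 was below both other libraries in 35 of 39 members, against 43.7% of genes tested, and the median ratio was 0.358; 2 members were above both, against 43.4% of genes. In 35 members replicate 1 was the lowest in both groups, against 30.0% of genes. Over all genes tested the median ratios were 0.971 on day 4 and 0.996 on day 2. Because these libraries are bulk samples, fewer cells of a type and less RNA per cell cannot be told apart here.

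**Figure D1:**
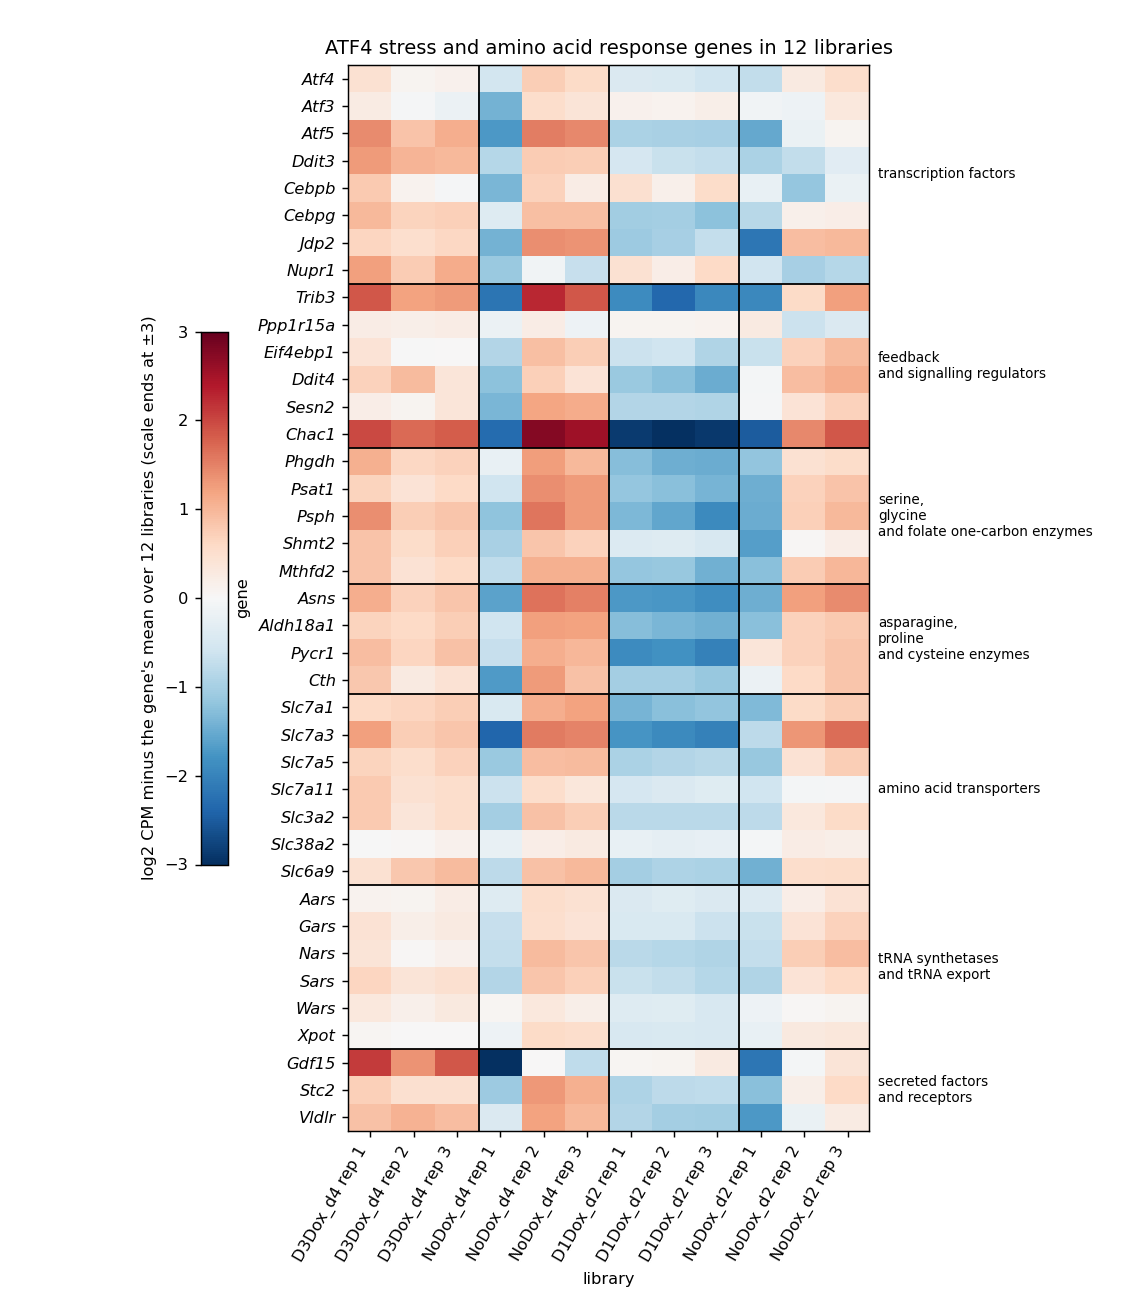
Log2 CPM of 39 genes (rows, by role) in 12 libraries (columns, by group), each gene relative to its mean over the 12 libraries; red is above and blue below that mean. The 3 D1Dox_d2 columns and the first column of both NoDox groups are blue for most genes, with Atf3, Cebpb, Nupr1 and Ppp1r15a among the exceptions.

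Per length, Atf4 was the most abundant member, with a mean over the 12 libraries of 548 TPM (a level per length, from counts per kilobase of exon). Asns followed with 429 TPM and Gars, the glycyl-tRNA synthetase, with 426 TPM. Nupr1 with 8.37 TPM and Gdf15 with 4.90 TPM were the least abundant. The highest of the 12 CPM values was 78.6 times the lowest for Chac1, 37.1 times for Gdf15 and 24.5 times for Trib3, but 2.79 times for Atf4 and 1.46 times for Slc38a2.

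Asns makes asparagine and is a standard readout of the amino acid branch of the response. It had 564, 431 and 474 CPM in D3Dox_d4, 87.2, 816 and 756 CPM in NoDox_d4, 80.7, 78.6 and 72.7 CPM in D1Dox_d2, and 97.0, 628 and 710 CPM in NoDox_d2. The D1Dox_d2 libraries were the lowest, both NoDox libraries numbered 1 lay just above them, and the other 7 libraries were higher. Chac1, which degrades glutathione, had 77.8, 63.6 and 69.0 CPM in D3Dox_d4, 3.98, 131 and 114 CPM in NoDox_d4, 2.69, 1.67 and 2.64 CPM in D1Dox_d2, and 3.46, 53.2 and 71.7 CPM in NoDox_d2. The same 5 libraries were low, and no other library was under 50 CPM.

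Trib3 is a pseudokinase that is induced by ATF4 and restrains it. It had 62.1, 39.5 and 41.3 CPM in D3Dox_d4, 3.75, 81.6 and 62.0 CPM in NoDox_d4, 4.58, 3.34 and 4.42 CPM in D1Dox_d2, and 4.48, 25.5 and 39.8 CPM in NoDox_d2. Atf4 itself had 568, 441 and 454 CPM in D3Dox_d4, 284, 691 and 618 CPM in NoDox_d4, 305, 303 and 273 CPM in D1Dox_d2, and 248, 504 and 593 CPM in NoDox_d2. Its 5 low libraries were those of Asns, over a narrower range. Phgdh, the first enzyme of serine synthesis, had 493, 358 and 382 CPM in D3Dox_d4, 202, 562 and 458 CPM in NoDox_d4, 96.6, 84.8 and 84.2 CPM in D1Dox_d2, and 103, 323 and 346 CPM in NoDox_d2.

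Ddit4, an inhibitor of the growth kinase mTORC1, had 309, 366 and 245 CPM in D3Dox_d4, 80.6, 311 and 254 CPM in NoDox_d4, 87.4, 80.3 and 67.8 CPM in D1Dox_d2, and 183, 361 and 406 CPM in NoDox_d2. Here the library labelled NoDox_d2 replicate 1 lay between the low and the high libraries. Ddit3, which encodes CHOP, had 35.5, 29.8 and 28.6 CPM in D3Dox_d4, 8.05, 24.7 and 24.5 CPM in NoDox_d4, 10.4, 9.15 and 8.92 CPM in D1Dox_d2, and 7.52, 8.81 and 11.6 CPM in NoDox_d2. Ddit3 was low in all day 2 libraries and in NoDox_d4 replicate 1, and it did not separate D1Dox_d2 from NoDox_d2. Of its exon bases, 10.9% are shared with other genes, among them a short second entry of the same symbol that received no counts, and read pairs there could not be assigned.

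**Figure D2:**
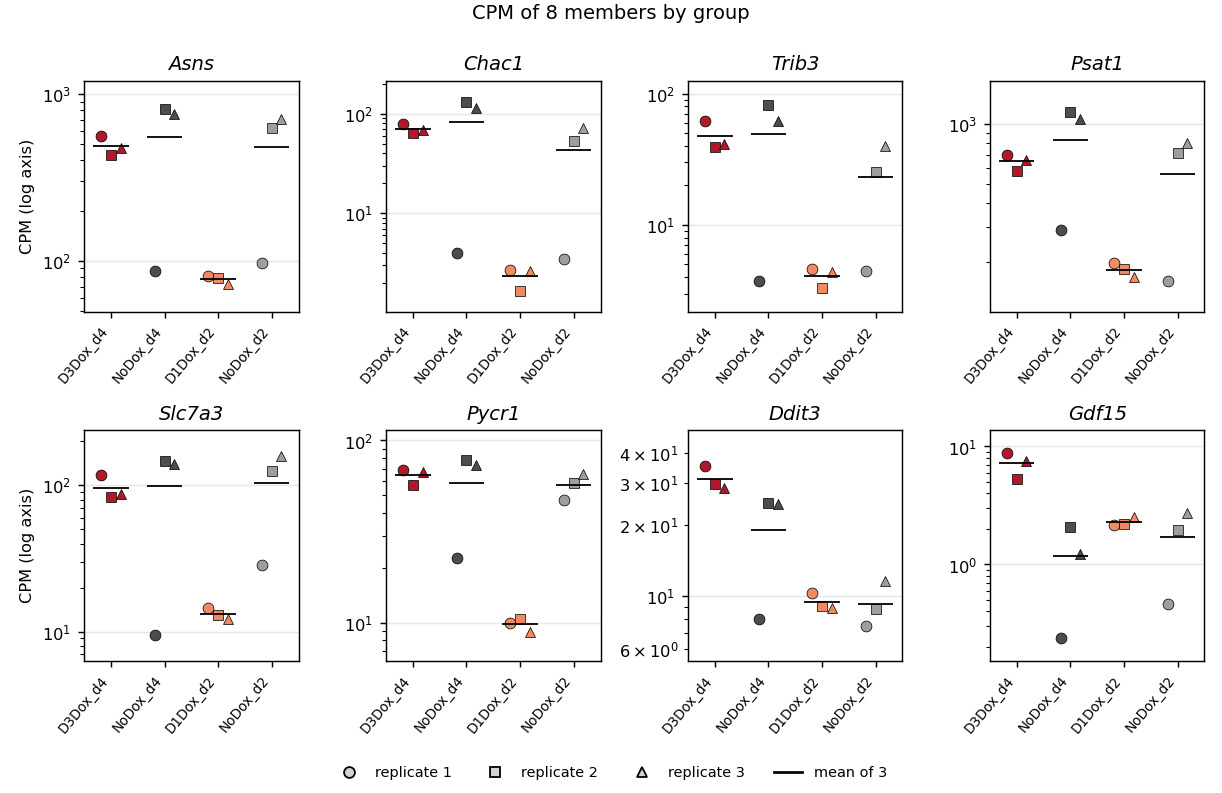
CPM (log axis) of 8 genes in the 4 groups of 3 libraries; symbols mark the replicate number and bars the mean of 3. For Asns, Chac1, Trib3, Psat1 and Slc7a3 the circles of both NoDox groups lie far below the squares and triangles of their groups.

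D1Dox_d2 was first compared with NoDox_d2, which asks how these genes differed with doxycycline on day 2. With all 12 libraries in edgeR's quasi-likelihood fit, 17 members fell, 1 rose and 21 did not pass at a Benjamini-Hochberg adjusted p under 0.05. Of all genes tested, 28.4% were called, 13.4% lower and 14.9% higher. The median log2 fold change of the members was -1.0, against -0.03 over all genes tested. The groups did not overlap in 17 members, 15 lower and 2 higher, against 46.0% of genes tested. Without both NoDox libraries numbered 1, 33 members fell, 3 rose and 3 did not pass, against 53.2% of genes called, 26.4% lower and 26.8% higher. The median was then -1.27, against 0.00 over all genes, and 36 of 39 members did not overlap, against 72.1% of genes.

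All 4 enzymes of asparagine, proline and cysteine synthesis fell. Asns had a log2 fold change of -2.63 ± 0.76 (SE), with an edgeR adjusted p of 0.0236, and -3.12 ± 0.11 without both NoDox libraries numbered 1. Pycr1, which completes proline synthesis, had the lowest adjusted p of all members. It had 69.3, 57.2 and 66.9 CPM in D3Dox_d4, 22.7, 78.3 and 73.5 CPM in NoDox_d4, 9.96, 10.5 and 8.92 CPM in D1Dox_d2, and 46.9, 58.8 and 65.6 CPM in NoDox_d2. The D1Dox_d2 libraries lay below every other library, and the log2 fold change was -2.54 ± 0.36 with an edgeR adjusted p of 0.000451. Aldh18a1, which starts proline synthesis, changed by -1.68 ± 0.50 and Cth, which releases cysteine from cystathionine, by -1.54 ± 0.53, both on the log2 scale.

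Of the 5 enzymes that make serine, glycine and one-carbon units, 4 fell. Their log2 fold changes were -1.54 ± 0.42 for Phgdh, -1.61 ± 0.54 for Psat1, -1.99 ± 0.66 for Psph and -1.70 ± 0.53 for Mthfd2. Psph, the last enzyme of serine synthesis, shares 10.4% of its exon bases with a gene on the other strand, which the unstranded counting cannot tell apart. Shmt2, the mitochondrial enzyme that converts serine to glycine, did not pass, with -0.15 ± 0.45 and an edgeR adjusted p of 0.830. Without both NoDox libraries numbered 1 its value was -0.55 ± 0.10, and all 5 fell.

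Among the 7 amino acid transporters 3 fell and 4 did not pass. The cationic amino acid carrier Slc7a3 had 117, 82.7 and 87.7 CPM in D3Dox_d4, 9.43, 146 and 139 CPM in NoDox_d4, 14.5, 13.1 and 12.2 CPM in D1Dox_d2, and 28.6, 125 and 159 CPM in NoDox_d2. Its log2 fold change was -2.97 ± 0.81, and that of its relative Slc7a1 was -1.53 ± 0.48. Slc38a2, a carrier of small neutral amino acids, changed by -0.37 ± 0.13. The cystine carrier Slc7a11 had -0.22 ± 0.24, the leucine carrier Slc7a5 -1.10 ± 0.49, its partner Slc3a2 -0.95 ± 0.42 and the glycine carrier Slc6a9 -1.08 ± 0.49, none of which passed. All 7 fell without both NoDox libraries numbered 1.

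Of the tRNA genes, Nars, Wars and the tRNA exporter Xpot fell, and Aars, Gars and Sars did not pass; all 6 fell without both NoDox libraries numbered 1. With all libraries, the log2 fold changes of those that fell ran from -1.34 ± 0.42 for Nars, the asparaginyl-tRNA synthetase, to -0.40 ± 0.10 for Wars, the tryptophanyl-tRNA synthetase. Among the regulators, Ddit4 fell by 2.01 ± 0.42 and Chac1 by 4.19 ± 1.17 on the log2 scale, with edgeR adjusted p-values of 0.00497 and 0.0203. Trib3 was at -2.50 ± 0.91 and did not pass (edgeR adjusted p = 0.0589); without both NoDox libraries numbered 1 it was -2.99 ± 0.24. Ppp1r15a, the eIF2 phosphatase subunit that ends the response, was at 0.31 ± 0.20 and did not pass, and rose by 0.62 ± 0.11 without those libraries. Eif4ebp1, a repressor of cap-dependent translation, was at -1.18 ± 0.43 and Sesn2, a leucine sensor of the mTORC1 pathway, at -1.27 ± 0.46; neither passed, and both fell without those libraries.

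The transcription factors were divided. Cebpg, a dimer partner of ATF4, fell by 1.00 ± 0.32 on the log2 scale, with an edgeR adjusted p of 0.0376. Atf4 was at -0.61 ± 0.33, Atf5 at -0.57 ± 0.61 and Jdp2 at -1.37 ± 0.72, none of which passed, and all 3 fell without both NoDox libraries numbered 1. Atf3, with 0.11 ± 0.36, and Ddit3, with 0.03 ± 0.34, passed in neither fit. Nupr1, a small stress-induced chromatin protein, was the only member that rose with all 12 libraries. It had 14.6, 10.5 and 13.4 CPM in D3Dox_d4, 2.84, 5.73 and 3.84 CPM in NoDox_d4, 8.45, 7.08 and 9.40 CPM in D1Dox_d2, and 4.17, 3.08 and 3.42 CPM in NoDox_d2. Doxycycline libraries lay above those without it on both days, and its log2 fold change on day 2 was 1.22 ± 0.26 (edgeR adjusted p = 0.00517). Cebpb, at 0.86 ± 0.44 with all libraries, rose by 0.99 ± 0.28 without both NoDox libraries numbered 1; 20.7% of its exon bases are shared with a gene on the other strand. Among the secreted factors and receptors, Gdf15 (0.42 ± 0.63), Stc2 (-0.85 ± 0.52) and Vldlr (-0.64 ± 0.44) did not pass; Stc2 and Vldlr fell without both NoDox libraries numbered 1.

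Only Nupr1, Ddit4 and Pycr1 of the 18 members called on day 2 passed without each of the 12 libraries in turn. The count of members called was 5, 4 and 3 without D1Dox_d2 replicates 1, 2 and 3, and 31, 6 and 3 without NoDox_d2 replicates 1, 2 and 3. It was 28 without NoDox_d4 replicate 1, and 14 to 17 without any one of the other 5 libraries.

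**Figure D3:**
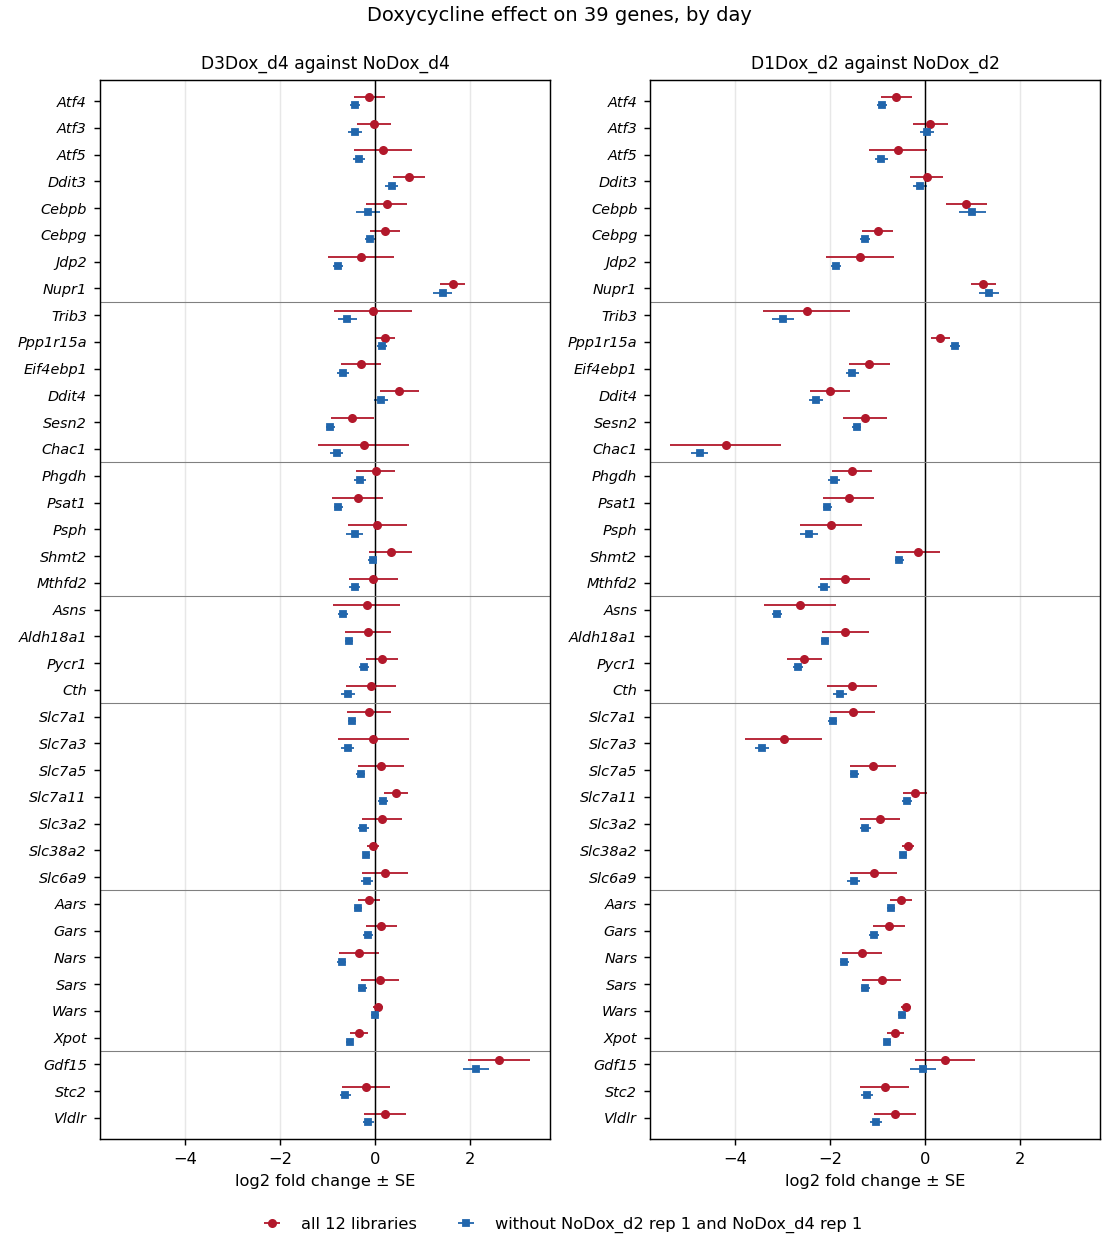
Log2 fold change ± SE of 39 genes for doxycycline on day 4 (left) and day 2 (right), from edgeR fits with all 12 libraries (circles) and without NoDox_d2 replicate 1 and NoDox_d4 replicate 1 (squares). On day 2 most genes lie left of 0; on day 4 most circles lie near 0, and Nupr1 and Gdf15 lie to its right in both fits.

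D3Dox_d4 was compared with NoDox_d4 in the same way on day 4. With all 12 libraries 2 members rose, none fell and 37 did not pass, while 23.5% of all genes tested were called, 13.4% higher and 10.2% lower. The median log2 fold change of the members was 0.01, against -0.03 over all genes. The groups did not overlap in 3 members, Ddit3, Nupr1 and Gdf15, all higher in D3Dox_d4, against 40.6% of genes tested. Gdf15, a secreted stress cytokine, had 8.78, 5.27 and 7.48 CPM in D3Dox_d4, 0.237, 2.07 and 1.23 CPM in NoDox_d4, 2.16, 2.20 and 2.51 CPM in D1Dox_d2, and 0.459, 1.98 and 2.71 CPM in NoDox_d2. The 3 D3Dox_d4 libraries were the highest of all 12, and the log2 fold change was 2.60 ± 0.65 (edgeR adjusted p = 0.0134), or 2.12 ± 0.28 without both NoDox libraries numbered 1. Nupr1 rose by 1.63 ± 0.26, with an edgeR adjusted p of 0.000984.

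Without both NoDox libraries numbered 1, 21 members fell on day 4, 3 rose and 15 did not pass, against 38.5% of all genes called, 17.9% lower and 20.6% higher. The median was -0.34, against -0.01 over all genes, and 25 of 39 members did not overlap, 22 of them lower, against 56.5% of genes. Those that fell included Sesn2 (-0.94 ± 0.10), Chac1 (-0.80 ± 0.14), Jdp2 (-0.78 ± 0.10), Psat1 (-0.77 ± 0.10), Nars (-0.70 ± 0.10) and Asns (-0.68 ± 0.11). Ddit3 rose by 0.35 ± 0.13, with an edgeR adjusted p of 0.0458. With all 12 libraries, Ddit3 was at 0.71 ± 0.33 and Asns at -0.18 ± 0.71 and neither passed. The count of 2 became 4 without NoDox_d4 replicate 1 and was 2 without any other single library.

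The effects of doxycycline on day 4 and day 2 were then compared by their difference, day 4 minus day 2, in the same fit. With all 12 libraries the difference was positive and passed for Pycr1, Ddit4 and Wars and for no other member, while 12.9% of all genes tested were called, 6.66% positive and 6.24% negative. The median difference over the members was 1.02, against 0.00 over all genes. For Pycr1 the effect was 0.15 ± 0.34 on day 4 and -2.54 ± 0.36 on day 2, a difference of 2.69 ± 0.49 (edgeR adjusted p = 0.00588). For Ddit4 the effect was 0.51 ± 0.41 on day 4 and -2.01 ± 0.42 on day 2, a difference of 2.52 ± 0.58 (edgeR adjusted p = 0.0177). For Wars the difference was 0.47 ± 0.14, with an edgeR adjusted p of 0.0497. Asns had a difference of 2.45 ± 1.02 that did not pass (edgeR adjusted p = 0.131).

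Without both NoDox libraries numbered 1, the difference was positive and passed for 32 members and negative for Cebpb and Ppp1r15a, and 5 did not pass, against 34.5% of all genes called, 18.7% positive and 15.8% negative. The largest was that of Chac1, 3.94 ± 0.23, followed by Slc7a3 with 2.85 ± 0.20, and Asns had 2.44 ± 0.15. With all libraries the difference was 3.95 ± 1.49 for Chac1. For Cebpb it was -1.14 ± 0.38 without those libraries and -0.62 ± 0.61 with all, and for Ppp1r15a -0.47 ± 0.15 and -0.10 ± 0.28. Without NoDox_d2 replicate 1 alone the count was 17, and without D1Dox_d2 replicate 3 it was 1, that of Pycr1.

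The D3Dox_d4 and D1Dox_d2 groups both received doxycycline and differ in day and in the number after the D, which cannot be told apart. None of the libraries that stand apart belong to them, although with all 12 libraries those still enter the shared estimate of spread. In D3Dox_d4, 26 members rose relative to D1Dox_d2, none fell and 13 did not pass, while 44.0% of all genes tested were called, 22.6% higher and 21.4% lower. The median log2 fold change of the members was 1.52, against 0.00 over all genes. In 37 of 39 members all D3Dox_d4 libraries lay above all D1Dox_d2 libraries, against 65.7% of genes that did not overlap in either direction; Atf3 and Cebpb overlapped. When the 6 libraries of the comparison were fitted alone, 36 members were called, against 61.4% of genes, and 36 were also called without both NoDox libraries numbered 1, all higher. In that fit 61.8% of genes were called, 31.7% higher and 30.1% lower, and 37 of 39 members did not overlap, against 65.4% of genes.

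Chac1 had the largest change between the doxycycline groups, a log2 fold change of 4.91 ± 1.19 (edgeR adjusted p = 0.00666), followed by Trib3 with 3.53 ± 0.93 and Slc7a3 with 2.85 ± 0.81. All 4 enzymes of asparagine, proline and cysteine synthesis rose, with Pycr1 at 2.72 ± 0.36 (edgeR adjusted p = 0.000199) and Asns at 2.66 ± 0.76 (0.0148). Of the serine, glycine and one-carbon enzymes 4 of 5 rose, from Psat1 at 1.82 ± 0.54 to Psph at 2.61 ± 0.67. Shmt2, at 1.14 ± 0.46, did not pass. Of the 7 transporters 6 rose, and Slc38a2, at 0.30 ± 0.13, did not pass.

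Gdf15, Stc2 and Vldlr all rose, with Vldlr, a lipoprotein receptor, at 1.95 ± 0.45. Among the transcription factors Atf5 (2.12 ± 0.63), Cebpg (1.88 ± 0.33) and Ddit3 (1.72 ± 0.34) rose. Atf4 was at 0.73 ± 0.33 and did not pass with all libraries (edgeR adjusted p = 0.0902). With the doxycycline libraries fitted alone, Atf4 was at 0.72 ± 0.11 and passed (edgeR adjusted p = 0.000191). Atf3 at -0.11 ± 0.36 and Cebpb at -0.08 ± 0.43 were the only members with values below 0. Jdp2 (1.52 ± 0.72), Nupr1 (0.63 ± 0.25), Ppp1r15a (0.10 ± 0.20), Eif4ebp1 (0.85 ± 0.43) and Sesn2 (1.09 ± 0.46) did not pass with all libraries either. Of the tRNA genes Sars, Wars and Xpot rose by 0.50 to 1.26, and Aars, Gars and Nars, at 0.54 ± 0.23, 0.82 ± 0.33 and 1.05 ± 0.42, did not pass. With the doxycycline libraries fitted alone, only Atf3, Cebpb and Ppp1r15a of all members did not pass. In that fit 61.4% of all genes were called. The count of 26 was 17 without D1Dox_d2 replicate 2 and 13 without D1Dox_d2 replicate 3, and 18 to 36 without any other single library; 13 of the 26 members passed in every one of these fits, among them Chac1, Trib3, Pycr1, Phgdh and Ddit4.

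**Figure D4:**
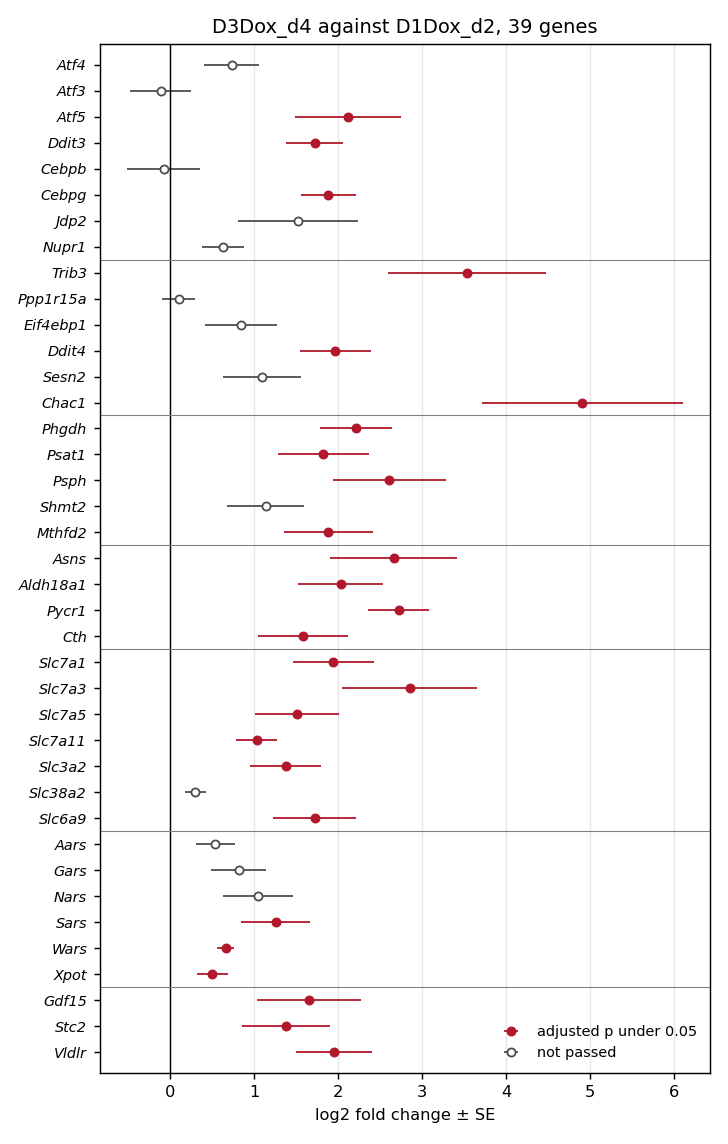
Log2 fold change ± SE of 39 genes in D3Dox_d4 against D1Dox_d2, by role, from the edgeR fit with all 12 libraries; filled points passed an adjusted p of 0.05. The 26 filled points all lie right of 0, with Chac1 farthest, and Atf3 and Cebpb lie just left of it.

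Among members with a promoter window, 6 of 11 with a TGATGNAA match and 16 of 22 without one rose in D3Dox_d4 relative to D1Dox_d2. Their median log2 fold changes were 1.52 with a match and 1.68 without one. These values are from the fit with all 12 libraries, in which 22.6% of all genes tested were called higher. With only the 6 doxycycline libraries fitted, Atf3 alone of those with a match did not pass. Of those without a match, only Cebpb and Ppp1r15a did not pass, and 61.4% of all genes were called in that fit. Whether members with and without a match differ was not tested.

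NoDox_d4 was compared with NoDox_d2 for the course of these genes without doxycycline. With all 12 libraries none of the members was called by edgeR, 3 had an unadjusted p under 0.05 and DESeq2 called 1, while 10.6% of all genes tested were called, 5.09% higher and 5.55% lower. The median log2 fold change was 0.28, against 0.02 over all genes, and the groups overlapped in all 39 members, while 23.2% of genes tested did not overlap. Without both NoDox libraries numbered 1, 21 members rose, none fell and 18 did not pass, against 24.4% of genes called, 13.4% higher. In 33 of 39 members the groups then did not overlap, 32 of them higher and Ddit4 lower, against 64.9% of genes. Atf5 then rose by 1.54 ± 0.15, Ddit3 by 1.26 ± 0.15, Trib3 by 1.14 ± 0.23 and Vldlr by 1.06 ± 0.13, while Asns, at 0.23 ± 0.12, did not pass (edgeR adjusted p = 0.173). Same-numbered libraries of these groups deviated together, which can follow from replicate 1 standing apart in both and does not show pairing. With the replicate number as a block in the 6 libraries, 8 members rose, against 11.6% of genes called. They were Vldlr, Shmt2, Cebpg, Aldh18a1, Psat1, Phgdh, Slc7a1 and Jdp2, with log2 fold changes from 0.50 ± 0.12 for Jdp2 to 1.13 ± 0.15 for Vldlr. The count was 7 without NoDox_d4 replicate 1 and 1 without NoDox_d2 replicate 1.

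Genes of the same pathways outside the list were described next. Their counts can be read against the shares of all genes called, which with all 12 libraries were 28.4% for doxycycline on day 2, 23.5% on day 4 and 44.0% between the doxycycline groups. These shares were, without both NoDox libraries numbered 1, 53.2% on day 2, 38.5% on day 4 and 61.8% between the doxycycline groups. Upstream of ATF4, among the eIF2 kinases and their partners, 1 of 7 tested genes rose with doxycycline on day 2 and none fell; without both NoDox libraries numbered 1, 3 rose and 2 fell, on day 2 and likewise on day 4. On day 2 Eif2ak3, the kinase of endoplasmic reticulum stress, was at 0.55 ± 0.11, and Eif2ak4, the kinase that senses uncharged tRNA, was at -0.47 ± 0.19 and did not pass. On day 4 Eif2ak3 rose by 0.54 ± 0.11 and Eif2s1, the phosphorylated subunit of eIF2, fell by 0.53 ± 0.11. Phosphorylation and translation are not measured in these data.

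In the unfolded protein response list 9 of 13 genes rose in D1Dox_d2 relative to NoDox_d2, none fell and 4 did not pass, with a median log2 fold change of 0.58. The fit without both NoDox libraries numbered 1 had 11 higher, and Herpud1 fell in it. Manf, a protein secreted under endoplasmic reticulum stress, rose by 0.86 ± 0.13 and Xbp1, a transcription factor of this response, by 0.58 ± 0.11. The chaperone Hspa5 had 986, 800 and 829 CPM in D3Dox_d4, 915, 658 and 673 CPM in NoDox_d4, 1245, 1189 and 1054 CPM in D1Dox_d2, and 898, 588 and 597 CPM in NoDox_d2. It was highest where Asns was lowest among the groups, and replicate 1 was above replicates 2 and 3 in both NoDox groups. Herpud1, of the same list, had 91.2, 66.3 and 76.2 CPM in D3Dox_d4, 23.7, 97.4 and 90.6 CPM in NoDox_d4, 26.5, 26.0 and 26.7 CPM in D1Dox_d2, and 20.2, 41.7 and 53.3 CPM in NoDox_d2, and was low in the 5 libraries in which Asns was low. Hspa5 and Herpud1 were chosen after their values were seen. In D3Dox_d4 against D1Dox_d2, 5 of the 13 genes fell, 2 rose and 6 did not pass; without both NoDox libraries numbered 1, 8 fell and 2 rose.

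Other genes of amino acid supply were mixed. On day 2, 5 of 16 other amino acid enzymes fell with doxycycline and 1 rose, with Bcat1, a branched-chain aminotransferase, at -1.33 ± 0.25 and Got2, the mitochondrial aspartate aminotransferase, at -0.54 ± 0.11. Of 12 other serine, glycine and folate genes 5 fell and none rose, with Shmt1 at -0.56 ± 0.09 and Mthfd1l at -0.87 ± 0.16. Of 11 other amino acid transporters tested 5 fell and 3 rose, Slc7a8 by 3.36 ± 0.50 and Slc7a2 by 1.21 ± 0.25. Of 15 other cytosolic tRNA synthetases 6 fell, with Vars at -0.57 ± 0.11 and Lars at -1.22 ± 0.35, and of 17 mitochondrial ones 8 fell and 1 rose, with Ears2 at -0.60 ± 0.11. The counts on day 2 without both NoDox libraries numbered 1 were 7 lower and 2 higher of the 16 amino acid enzymes, 7 lower and 1 higher of the 12 serine, glycine and folate genes, and 6 lower and 3 higher of the 11 transporters. They were 12 lower and 1 higher of the 15 cytosolic synthetases and 10 lower and 1 higher of the 17 mitochondrial ones.

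A few of these genes had the library pattern of Asns; they too were chosen after their values were seen. Gpt2, the mitochondrial alanine aminotransferase, had 229, 195 and 222 CPM in D3Dox_d4, 50.4, 416 and 392 CPM in NoDox_d4, 39.7, 38.4 and 32.5 CPM in D1Dox_d2, and 38.3, 215 and 235 CPM in NoDox_d2. Its log2 fold change was -2.14 ± 0.70 in D1Dox_d2 against NoDox_d2 and 2.54 ± 0.71 in D3Dox_d4 against D1Dox_d2. The serine and alanine carrier Slc1a4 was at -2.17 ± 0.47 and 2.43 ± 0.47 in the same comparisons, and Pck2, a mitochondrial gluconeogenic enzyme, at -2.14 ± 0.64 and 2.57 ± 0.65. Aldh1l2, the mitochondrial folate dehydrogenase, had 57.1, 70.1 and 80.4 CPM in D3Dox_d4, 5.64, 55.6 and 51.5 CPM in NoDox_d4, 5.08, 6.83 and 7.19 CPM in D1Dox_d2, and 3.85, 19.2 and 21.6 CPM in NoDox_d2. It was low in the same 5 libraries and rose by 3.44 ± 0.75 in D3Dox_d4 against D1Dox_d2.

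**Figure D5:**
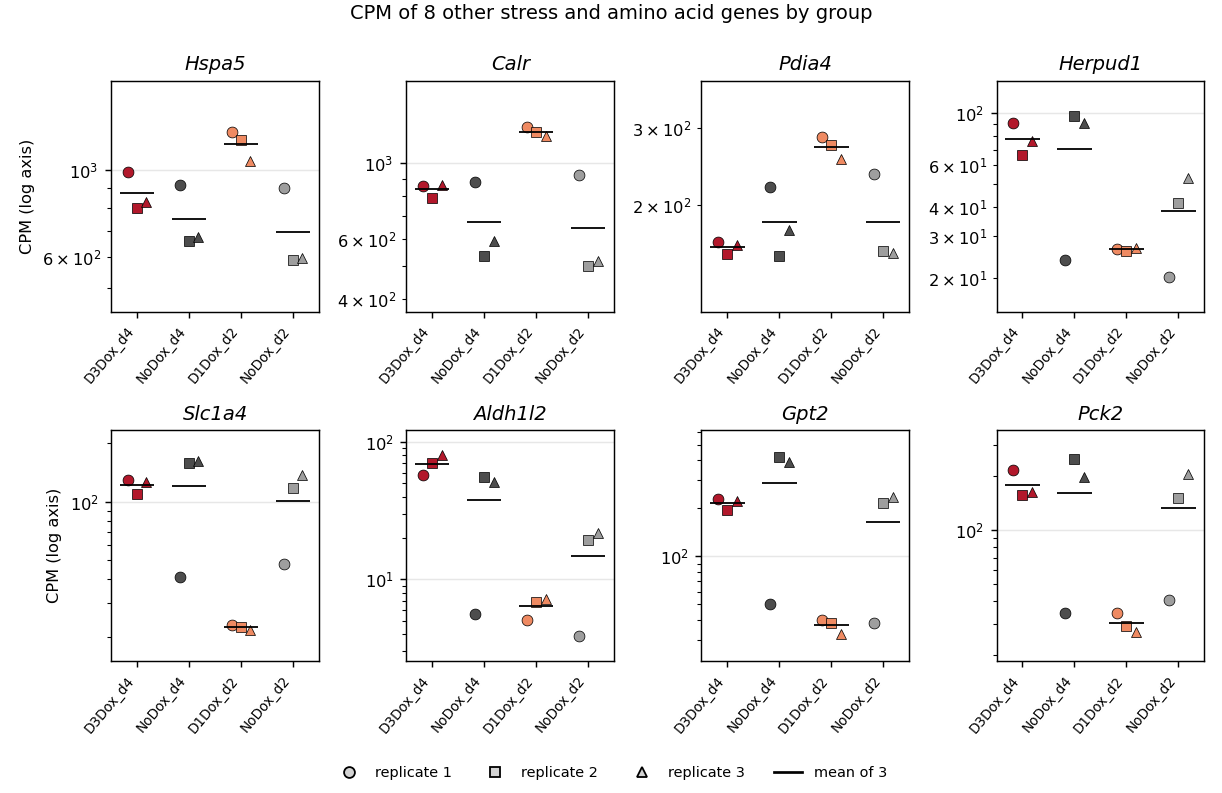
CPM (log axis) of 8 genes outside the list in the 4 groups of 3 libraries; symbols mark the replicate number and bars the mean of 3. Hspa5, Calr and Pdia4 are high in D1Dox_d2 and in the circles of both NoDox groups, while Herpud1, Slc1a4, Aldh1l2, Gpt2 and Pck2 are low there.

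Other stress programmes were read from short lists, and their counts can be read against the same shares of all genes called. Of 11 p53 targets 6 rose and 1 fell in D1Dox_d2 against NoDox_d2, with Ccng1 at 0.85 ± 0.15 and Eda2r at 1.01 ± 0.19, and in D3Dox_d4 against D1Dox_d2 8 fell and 1 rose. Of 7 NRF2 targets, genes of the oxidative stress response, 3 rose and none fell on day 2, with Nqo1 at 1.28 ± 0.26 and Hmox1 at 0.76 ± 0.19, and in D3Dox_d4 against D1Dox_d2 6 fell and none rose. Of 9 heat shock genes 1 rose on day 2, Hspb1 by 1.05 ± 0.35, and 4 fell on day 4, among them Hspd1 by 0.76 ± 0.16. Of 12 other stress targets linked to ATF4, 1 rose and 3 fell on day 2, and 5 rose and 1 fell on day 4. On day 2 without both NoDox libraries numbered 1, 8 p53 targets rose and 2 fell, 4 NRF2 targets and 4 heat shock genes rose and none fell, and 3 of the ATF4-linked targets rose and 5 fell. On day 4 without those libraries, 4 heat shock genes fell and 1 rose, and 7 of the ATF4-linked targets rose and 2 fell. Between the doxycycline groups, again without them, 10 p53 targets fell and 1 rose, and 6 NRF2 targets fell and 1 rose.

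Markers of other cell types also moved with the groups. The 13 fibroblast feeder markers all had counts in every library, and their CPM summed to 487 to 575 in D3Dox_d4, 195 to 752 in NoDox_d4, 1973 to 2410 in D1Dox_d2 and 367 to 505 in NoDox_d2. The highest NoDox sums on both days were those of replicate 1. These sums cannot tell feeder cells from other cells that express the same genes. The 9 neural markers summed to 1514 to 1706 in D3Dox_d4, 537 to 1240 in NoDox_d4, 486 to 563 in D1Dox_d2 and 606 to 842 in NoDox_d2, and replicate 1 was the lowest in both NoDox groups. The 10 primitive streak markers summed to 528 to 580 in D3Dox_d4, 144 to 211 in NoDox_d4, 600 to 622 in D1Dox_d2 and 198 to 1752 in NoDox_d2, the highest in the library labelled NoDox_d2 replicate 1. These markers include Mixl1, the induced gene, which made up most of the sum in every doxycycline library. The streak sums therefore do not show that the other streak markers rose with doxycycline. The 12 primed epiblast markers summed to 757 to 848 in D3Dox_d4, 885 to 1148 in NoDox_d4, 1394 to 1517 in D1Dox_d2 and 1769 to 2006 in NoDox_d2, with counts of every marker in each library. Endoderm markers, 7 to 9 of 9 with counts, summed to 199 to 220 in D3Dox_d4, 81.8 to 161 in NoDox_d4, 148 to 167 in D1Dox_d2 and 49.2 to 56.6 in NoDox_d2. Blood and endothelium markers, 6 to 8 of 8 with counts, summed to 13.1 to 17.5 in D3Dox_d4, 10.4 to 45.4 in NoDox_d4, 31.3 to 36.7 in D1Dox_d2 and 5.85 to 9.43 in NoDox_d2. The part of cell composition in the results above was not tested.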

How the data were processed

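RNA was sequenced in 12 libraries of embryoid bodies, 3 in each of 4 groups taken from the sample titles. Per the labels' protocols, NEBNext Ultra II libraries were read as paired ends and trimmed with Trim Galore; STAR, featureCounts and DESeq2 appear in the submitters' processing notes, as do GRCm38 and mm10. The authors deposited whole-number counts, 1 value per gene and library, made from read pairs with featureCounts and GENCODE vM25 without a strand setting, per the file headers. Pairs that overlap more than one gene were not assigned.

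Of 55487 gene identifiers, 55141 were given a symbol. Of the members, Slc6a9 (30.2%), Cebpb (20.7%), Aars (15.1%), Ddit3 (10.9%) and Psph (10.4%) overlap other genes in over 10% of their exon length. The main test was edgeR 4.0.16's quasi-likelihood F-test in R 4.3.3, after TMM scaling and filterByExpr; all 12 libraries and 4 group coefficients left 8 residual degrees of freedom. Benjamini-Hochberg adjustment ran over all 18109 genes tested, and SEs were taken as the absolute log2 fold change over root F. The fit without both NoDox libraries numbered 1 tested 18613 genes. The test was checked on simulated counts in which no library stood apart from its group. That check therefore does not cover the NoDox libraries numbered 1. The members and lists were chosen with earlier results of these data known. Members were described by role, 7 of them (Asns, Atf4, Ddit3, Trib3, Chac1, Ddit4, Phgdh) with every library's value. Called members and the members of lowest adjusted p in each role were added. Of the other stress and amino acid lists, counts of genes called are given for some comparisons, and for most lists log2 fold changes of named genes. By plan the named genes were those of lowest adjusted p in a list, but their adjusted p-values are not printed. Genes chosen after their values were seen are marked as such.

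Replicate numbers were checked for pairing by the correlation of deviations from group means. Between NoDox_d4 and NoDox_d2 it was 0.545, 0.361 and 0.308 for replicates 1, 2 and 3. Replicate 1 stands apart in both groups, and deviations from a mean of 3 then also shift replicates 2 and 3 together. Differently numbered libraries were not compared, so these values cannot show whether the numbers pair the libraries. Alternatives were other scalings and filters, DESeq2 1.42.0, the replicate block, only the libraries compared, and removal of libraries.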

Additional observations from a re-analysis of the deposited data

Results flagged for a closer look

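For 3 members the doxycycline effect differed between the days by a test of the difference itself, day 4 minus day 2, in edgeR's quasi-likelihood fit. The difference was 2.69 ± 0.49 (log2, SE) for Pycr1, with an edgeR adjusted p of 0.00588; every D1Dox_d2 library lay below every NoDox_d2 library, while D3Dox_d4 and NoDox_d4 overlapped. It was 2.52 ± 0.58 for Ddit4, with an edgeR adjusted p of 0.0177, or 0.0510 without D1Dox_d2 replicate 3. It was 0.468 ± 0.14 for Wars, with an edgeR adjusted p of 0.0497, and this call was lost without any of 10 of the 12 libraries, at adjusted p-values of up to 0.122.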

How the results depend on the processing

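Without both NoDox libraries numbered 1, members called numbered 36 in D1Dox_d2 against NoDox_d2, 24 in D3Dox_d4 against NoDox_d4, 34 for the difference of these effects and 21 in NoDox_d4 against NoDox_d2. Without a filter on low counts the difference had 7 calls and NoDox_d4 against NoDox_d2 had 2; DESeq2 called 1 in that comparison. The replicate block within the 6 NoDox libraries, added after the data were seen, gave 8. Leaving out each library in turn gave 3 to 31 calls in D1Dox_d2 against NoDox_d2, 2 to 4 in D3Dox_d4 against NoDox_d4, 1 to 17 for the difference, 0 to 7 in NoDox_d4 against NoDox_d2 and 13 to 36 in D3Dox_d4 against D1Dox_d2. The cause of these shifts was not tested. With the replicate block in all 12 libraries the counts, in the same order, were 14, 2, 2, 0 and 29; outside the NoDox groups same-numbered libraries did not deviate together throughout. No log2 fold change of a called member changed sign. Apart from leaving out single libraries, 371 values of called members stayed past the threshold and 18 did not; with single libraries left out these were 441 and 147. The lowest members, Gdf15 and Nupr1, have 968 and 2240 counts over the 12 libraries, which limits their precision.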
